A study of Mus musculus with 11 samples.

Results

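The trophectoderm is the first epithelium of the mouse embryo and the source of the placenta, and the genes described here encode 9 transcription factors that specify it or act in the trophoblast cells that come from it. They are Cdx2, Elf5, Gata2, Gata3, Tfap2a, Tfap2c, Hand1, Tead4 and Elf3, and they were taken by name from the 23288 gene symbols of the expression table. All 9 were found. The cells were mouse ESCs (E14Tg2A), grown without feeder cells in serum and LIF, and the ESC factors Pou5f1, Sox2 and Nanog were at 1120, 132.9 and 191.6 FPKM or more in every RNA library. RNA-seq compared 2 libraries from ESCs carrying a lentiviral control shRNA (shCtl) with 2 libraries from ESCs carrying an shRNA against Cbx6 (shCbx6), otherwise the same cells. Which of the Cbx6 shRNAs went into which library is not given in the sources used here, and nothing says that the libraries came from separate cultures, so their spread may be technical. Peak lists came from 4 ChIP-seq samples, namely 2 replicates of an anti-HA ChIP in ESCs whose own Cbx6 gene was tagged with a triple HA by CRISPR-Cas9, a line grown from single sorted cells, and 1 ChIP each of CBX7 and of RING1B. The anti-HA ChIP of untagged ESCs and both IgG samples were not analysed here.

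In the blastocyst, TEAD4 with its coactivators YAP and TAZ switches on Cdx2 and, through a parallel branch, Gata3 in the outer cells, where Hippo signaling is low. CDX2 and OCT4 oppose each other, which is why ESCs, which come from the inner cell mass, keep Cdx2 off. Later, ELF5, TFAP2C and their partners hold the trophoblast stem cell state, GATA2, GATA3 and TFAP2A act in its differentiating descendants, and HAND1 drives the formation of giant cells. CBX6 and CBX7 are alternative chromobox subunits of Polycomb repressive complex 1 (PRC1), and RING1B is its catalytic subunit, which ubiquitinates histone H2A. Polycomb complexes settle on CpG-rich DNA of silent developmental genes.

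The DNA at the starts of these genes differed in its CpG content, and 4 examples are shown because they cover genes with peaks in all 4 lists (Cdx2, Gata2), in 1 list (Elf3) and in none (Elf5). Each runs from 250 bases before to 50 bases after a RefSeq transcription start (GRCm38.p6), with every CG in capitals. Each was found exactly 1 time in mm9, the build of the peak lists, and the mm9 positions are chr5:148118776-148119075 on the minus strand for Cdx2, chr6:88143635-88143934 on the plus strand for Gata2, chr1:137155000-137155299 on the minus strand for Elf3 and chr2:103252005-103252304 on the plus strand for Elf5.
Cdx2: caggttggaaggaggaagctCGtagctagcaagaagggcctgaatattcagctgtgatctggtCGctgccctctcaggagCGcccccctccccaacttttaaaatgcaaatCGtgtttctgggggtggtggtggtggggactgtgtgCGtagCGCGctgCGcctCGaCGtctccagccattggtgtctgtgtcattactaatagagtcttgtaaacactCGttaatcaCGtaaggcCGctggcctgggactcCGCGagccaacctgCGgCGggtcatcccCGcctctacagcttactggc
Gata2: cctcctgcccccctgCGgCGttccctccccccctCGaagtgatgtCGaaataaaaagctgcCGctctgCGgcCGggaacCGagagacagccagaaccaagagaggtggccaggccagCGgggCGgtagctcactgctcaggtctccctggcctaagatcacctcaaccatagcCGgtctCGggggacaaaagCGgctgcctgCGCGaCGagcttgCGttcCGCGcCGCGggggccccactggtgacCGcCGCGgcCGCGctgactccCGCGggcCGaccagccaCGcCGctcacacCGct
Elf3: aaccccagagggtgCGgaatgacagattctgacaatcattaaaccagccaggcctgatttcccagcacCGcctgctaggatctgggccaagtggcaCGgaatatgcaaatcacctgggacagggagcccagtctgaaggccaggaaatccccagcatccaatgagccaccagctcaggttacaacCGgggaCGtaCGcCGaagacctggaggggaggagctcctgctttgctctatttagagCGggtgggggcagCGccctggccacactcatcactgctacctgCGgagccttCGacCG
Elf5: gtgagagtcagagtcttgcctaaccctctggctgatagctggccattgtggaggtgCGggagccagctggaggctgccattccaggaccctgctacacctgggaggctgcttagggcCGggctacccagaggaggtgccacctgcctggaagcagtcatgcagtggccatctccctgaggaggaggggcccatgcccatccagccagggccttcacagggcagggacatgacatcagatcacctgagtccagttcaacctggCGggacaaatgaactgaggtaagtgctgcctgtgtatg

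The Gata2 start held 32 CpG in these 300 bases, the Cdx2 start 18, the Elf3 start 12 and the Elf5 start 3. Relative to the number that the C and G content predicts, the ratios were 0.9, 0.731, 0.46 and 0.11. Over all 32851 RefSeq promoters of that length the median was 7 CpG and a ratio of 0.384, and 33.5% had both a GC content of at least 50% and a ratio of at least 0.6, the usual mark of a CpG island. RefSeq sequences were at hand for 6 of the genes, with 9 starts in all. The starts of Cdx2, Gata2 (both), Gata3 and the downstream start of Tfap2a met both conditions, whereas the upstream start of Tfap2a (ratio 0.71, GC 46.3%), the Elf3 start and both Elf5 starts did not. The second Elf5 start held 10 CpG (ratio 0.442). Gata3 had 22 CpG and a ratio of 0.658 at a start that lies 11434 bp inside the longest annotated gene.

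**Figure D1:**
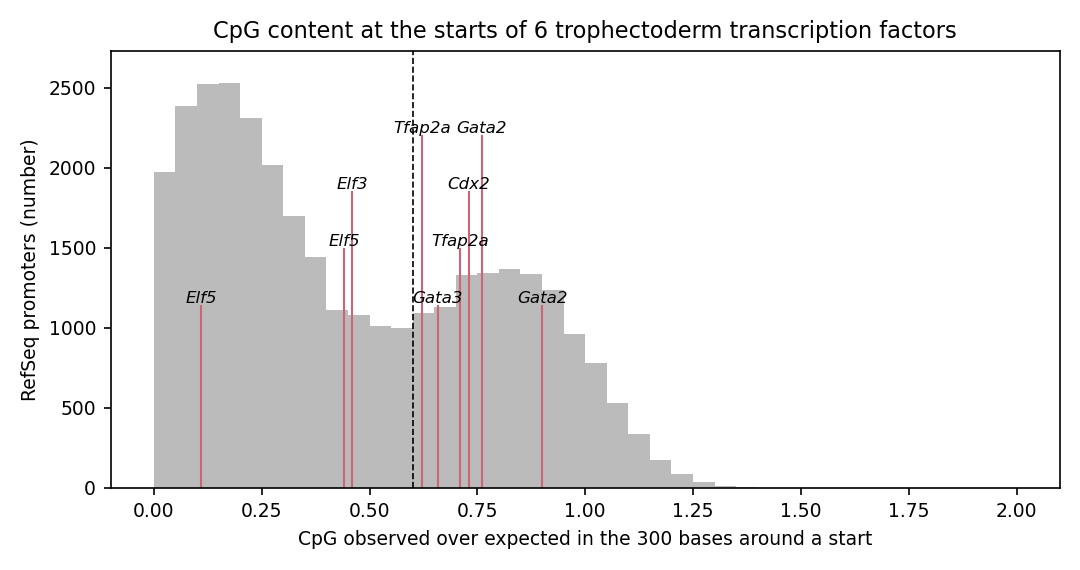
Number of RefSeq promoters (grey bars) by their ratio of observed to expected CpG in 300 bases around the start, with red lines at the 9 starts of 6 trophectoderm transcription factors and a dashed line at 0.6. Both Elf5 starts and the Elf3 start lie below 0.6, and those of Cdx2, Gata2, Gata3 and Tfap2a lie between 0.621 and 0.9.

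A search of the same windows on both strands for ATGCAAAT, the octamer that OCT4 and other POU factors bind, chosen after the sequences were seen, found it in Cdx2 and Elf3, against 1.74% of all promoters. The TEAD motif GGAATG was found in Elf3, in the first start of Elf5 and in the downstream start of Gata2, against 14.7% of all promoters, and TATAAA in none of the 9 windows, against 13.6%. These are matches of letters and do not show that a factor binds.

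Of the 9 genes, 7 had a peak of CBX6 in both replicates, of CBX7 and of RING1B between 2.5 kb upstream of the gene and its end, with an overlap of at least 1 bp. They were Cdx2, Gata2, Gata3, Tfap2a, Tfap2c, Hand1 and Tead4. Elf3 had a peak in CBX6 replicate 1 alone, and Elf5 in no list, with none within 20 kb of the gene either. Among the 21929 genes with mm9 coordinates, 11.5% had a peak in all 4 lists and 40.1% in none. In the single lists, the shares of all genes were 56.9% for CBX6 replicate 1, 16.6% for CBX6 replicate 2, 17.9% for CBX7 and 16.1% for RING1B, beside 8, 7, 7 and 7 of the 9 genes. The CBX6 lists differ in length, with 21865 peaks in replicate 1 and 5103 in replicate 2, and a peak in replicate 1 alone, as at Elf3, is read with that in mind.

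The peaks at 6 of the genes were broad. A width of 5 kb, set after the peaks were seen, was reached by a RING1B peak and by a CBX7 peak at Cdx2, Gata2, Gata3, Tfap2a, Tfap2c and Hand1, against 1.93% and 2.05% of all genes. CBX6 peaks of that width lay at 5 of them in replicate 2 (not Tfap2c) and at 4 in replicate 1 (Gata2, Gata3, Tfap2a and Tfap2c), against 1.44% and 0.78% of all genes. Each peak carries the MACS score of its caller, which grows as the p-value shrinks and was used only to rank peaks within a list. In all lists but CBX6 replicate 1 a score of exactly 3100 recurs, and peaks that carry it cannot be ranked.

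Gata3 (chromosome 2, 9778705 to 9811661, minus strand), a zinc finger factor of the outer cells, carried the longest peak of the 9 genes. A single CBX7 peak of 20728 bp, the sixth widest of 5081 (score 2553.03), covered its start and most of the gene (9792638 to 9813365). RING1B had a peak of 15020 bp (9792921 to 9807940, score 3100) in the body of Gata3 and another of 3868 bp over the annotated gene start (9808759 to 9812626, score 1570.51). CBX6 replicate 2 showed nearly the same division, with 15744 bp (9792782 to 9808525, score 2452.45) in the body and 2968 bp over the annotated gene start. CBX6 replicate 1 had 3 peaks, the strongest of 8118 bp (9797626 to 9805743) with a score of 143.83. The CpG-rich RefSeq start of Gata3, 11434 bp inside the annotated gene, lies in the longest peak of each list. Positions shared by CBX6 replicate 2, CBX7 and RING1B came to 18607 bp, and those shared by all 4 lists to 11082 bp. The long peaks also overlap the annotated genes Gm13256, 4930412O13Rik and 9230102O04Rik.

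At Gata2 (chromosome 6, 88143885 to 88157024, plus strand), the blood and trophoblast GATA factor, 1 CBX7 peak of 16047 bp ran from 88139598 to 88155644 and covered 91.2% of the window (score 3100). RING1B split the same stretch into 2363 bp upstream and 12734 bp over the start (score 3100). CBX6 replicate 2 had 4 peaks, the strongest of 10082 bp (score 2209.18) and the last, of 750 bp, just past the end of that stretch. The strongest of 3 peaks in CBX6 replicate 1 spanned 7360 bp over the start, with a score of 461.61.

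Tfap2a (chromosome 13, 40811044 to 40829192, minus strand) encodes AP-2 alpha, and its strongest peaks spanned the start. They measured 13396 bp in CBX6 replicate 2, 13055 bp in CBX7 and 12429 bp in RING1B, each with a score of 3100, and 7761 bp in CBX6 replicate 1, whose score of 1296.92 was the highest of that list at any of the 9 genes. These peaks also overlap Gm16989. A separate, weaker peak inside the gene was present in all 4 lists, with scores of 84.7 in CBX7 and 56.28 in RING1B.

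At Cdx2 (chromosome 5, 148112381 to 148118846, minus strand), the caudal homeobox factor that commits cells to the trophectoderm, 1 peak per list was centred in an intron. It measured 3920 bp in CBX6 replicate 1 (148115544 to 148119463, score 363.15), 10093 bp in CBX6 replicate 2 (148110376 to 148120468, score 2006.91), 10001 bp in CBX7 (148111010 to 148121010, score 3100) and 8588 bp in RING1B (148112001 to 148120588, score 3100). The last 3 covered 90.2, 96.3 and 91.5% of the window of the gene. The CpG-rich start printed above lies inside all 4.

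Hand1 (chromosome 11, 57642207 to 57646320, minus strand), the bHLH factor of giant cells, was covered over most of its window. Its CBX7 peak (57640143 to 57651422, 11280 bp) took up 100% of the window, and the RING1B peak (57640224 to 57648113, 7890 bp) and the CBX6 replicate 2 peak (57640331 to 57648286, 7956 bp) took up 89.3 and 91.9%. All 3 had a score of 3100. In CBX6 replicate 1 there were 2 peaks within the gene and past its end, with scores of 242.36 and 56.2. Neither lay over the gene start, although another annotated start of Hand1 was covered.

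Tfap2c (chromosome 2, 172375093 to 172384122, plus strand), which encodes AP-2 gamma and is also active in pluripotent and germ cells, differed in that its peaks lay mostly upstream. They measured 7038 bp in CBX7 (172370700 to 172377737, score 2191.14), 6946 bp in RING1B (172370835 to 172377780, score 831.63) and 6677 bp in CBX6 replicate 1 (172370842 to 172377518, score 481.79), and covered from 42.7 to 45.0% of the window. CBX6 replicate 2 had 2 peaks over the same stretch, with scores of 721.4 and 258.88.

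Tead4 (chromosome 6, 128174306 to 128250841, minus strand), the DNA-binding partner of YAP at the top of the trophectoderm program, had a peak at its start in every list, narrower than the widest peaks of the 6 genes above. These start peaks had 2168 bp and a score of 127 in CBX6 replicate 1, 1558 bp and 135.14 in CBX6 replicate 2, 2677 bp and 229.48 in CBX7, and 2167 bp and 50.41 in RING1B, close to the lowest score of that list, 50.03. CBX6 replicate 1 had 4 further peaks inside the gene, with scores of 66.97 to 94.58 and widths of 1044 to 1956 bp, which no other list shared. At a minimum score of 100 the RING1B peak at Tead4 dropped out. Elf3 (chromosome 1, 137150151 to 137155049, minus strand), an ETS factor of epithelia, had its single peak of 1613 bp (137154556 to 137156168) over the start with a score of 77.18, which also dropped out at that minimum. Elf5 (chromosome 2, 103251845 to 103291146, plus strand) is the ETS factor of trophoblast stem cells.

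**Figure D2:**
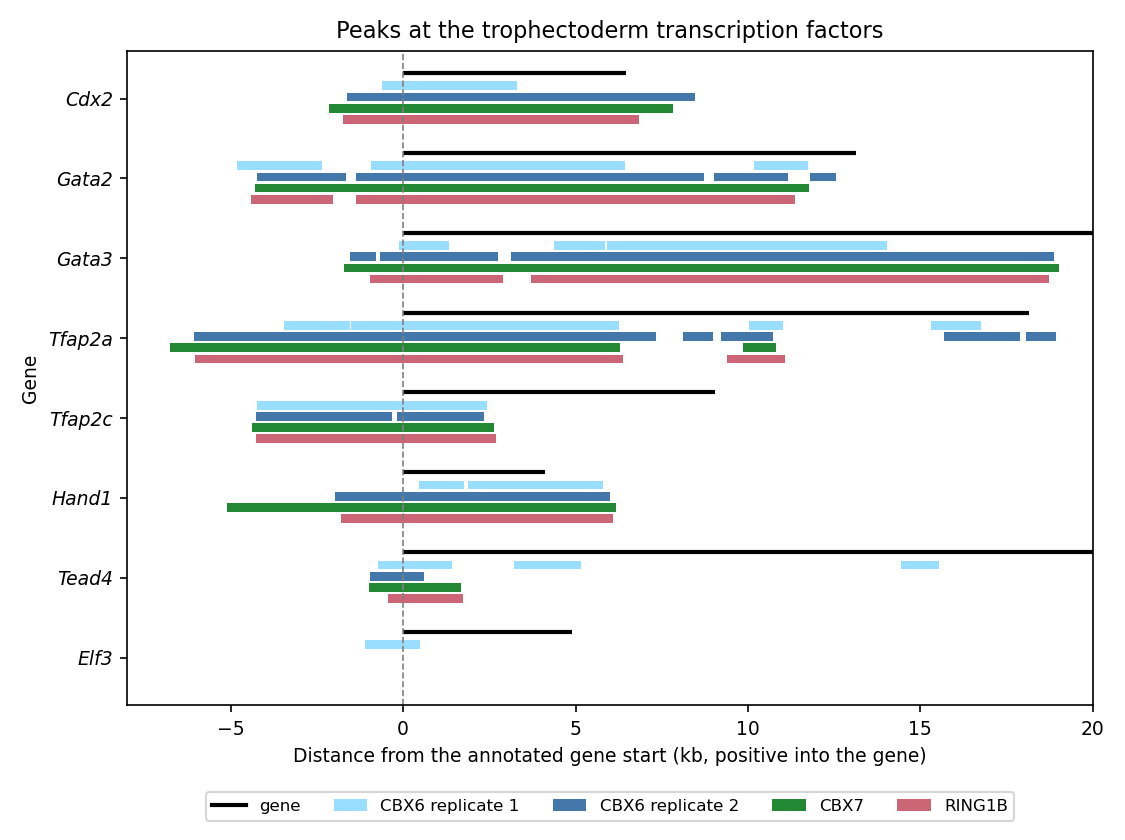
Peaks of the 4 lists (coloured bars) by distance in kb from the annotated gene start, positive into the gene, with each gene as a black line. Genes and peaks beyond 20 kb are not drawn (Gata3 and Tead4 run on), Elf5 has no peak and is left out, and Tead4 and Elf3 have no peak of 5 kb or more, unlike the 6 genes above them.

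Expression was read as FPKM, the fragments found on a transcript divided by its length and by the size of the library, which allows levels to be compared between genes. In shCtl the order of the mean levels was Elf3, Tead4, Tfap2c, Tfap2a, Gata2, Cdx2, Hand1, Gata3 and Elf5. The means of Elf3, Tead4 and Tfap2c were 11.6, 8.77 and 2.53 FPKM, and the other 6 were under 1 FPKM. The shCtl libraries did not overlap between Tead4 and Tfap2c or between Tfap2c and Tfap2a, whereas Elf3 (10.3 and 12.9 FPKM) lay just above Tead4 (9.68 and 7.87), and Tfap2a overlapped with Gata2, and Cdx2, Hand1 and Gata3 with one another. Elf5, the lowest by its mean, overlapped with Cdx2. Of the 7 genes with peaks in all 4 lists, 5 had a shCtl mean under 1 FPKM (Tfap2c and Tead4 were the others), beside 73.0% of the 2521 genes with such peaks. Cbx6 itself was at 17.4 and 14.9 FPKM in shCtl against 9.53 and 5.40 FPKM in shCbx6, so the knockdown was partial and deeper in replicate 2. RNA from bulk cultures cannot tell a change in every cell from a change in the number of cells of 1 type, and this holds for each value that follows.

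Both shCbx6 libraries lay above both shCtl libraries for 5 of the 9 genes, Cdx2, Elf5, Gata3, Tfap2c and Hand1, and below both for 1, Tead4. Among the 18597 genes above 0 in at least 1 library, the corresponding shares were 20.6% and 20.2%. Values of Gata2, Tfap2a and Elf3 overlapped between the groups. Only 4 of the genes reached a mean of 1 FPKM in either group and entered the limma fit of log2(FPKM + 1), and Hand1 did so through shCbx6 alone. None passed an adjusted p of 0.05, and at an unadjusted p under 0.05 limma gave 1 higher (Tfap2c) and 1 lower (Tead4). Of all 11592 genes fitted, 0.0431% were called higher and 0.0518% lower at the adjusted p, and 5.12% were higher and 6.55% lower at the unadjusted p. By the ratio of the group means Tfap2c was up and Tead4 down 1.5-fold, as were 7.63 and 6.56% of the genes fitted. Hand1 was also up, but it could only be fitted because it was high in shCbx6, so it is not counted here. With 2 libraries against 2, an exact permutation test of a single gene cannot go below p = 0.333, so none is given.

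Tfap2c had the smallest unadjusted p of the 4 genes fitted. It was read at 2.84 and 2.21 FPKM in shCtl against 7.41 and 9.04 FPKM in shCbx6. Both shCbx6 libraries were high and close to each other, and the gap between the groups was larger than the spread within either. Means were 2.53 ± 0.444 and 8.22 ± 1.16 FPKM (SD, n = 2 libraries each), a ratio of 3.26, and the limma log2 fold change was 1.39 (standard error 0.176, adjusted p = 0.0895). Without shCbx6 replicate 1 it was 1.52 with a limma adjusted p of 0.0406, in a fit where the spread comes from the shCtl pair and the remaining shCbx6 library is assumed to vary alike, so it is not taken as a call. It lay between 1.26 and 1.52 without each of the other libraries, with limma adjusted p from 0.162 to 0.638.

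Hand1 had the largest ratio of the 9 genes and a wide spread in shCbx6. The libraries gave 0.0535 and 0.0176 FPKM in shCtl against 0.205 and 1.80 FPKM in shCbx6. Replicate 2 of shCbx6 was far above all others, and replicate 1 was above shCtl as well. At this depth the low values stand for a handful of sequenced fragments, 3 and 1 in shCtl against 11 and 114 in shCbx6, as recovered from the steps between low FPKM values. Summed over the groups and scaled for depth, the ratio of 125 to 4 fragments was 30.2 (95% exact interval 11.5 to 113, counting error only). The limma log2 fold change of 0.83 (standard error 0.427, adjusted p = 0.538) became 1.44 without shCbx6 replicate 1 and 0.22 without shCbx6 replicate 2, so its size rests on replicate 2. Each fit with 1 shCbx6 library takes its spread from the shCtl pair and assumes that the lone library varies alike, so only the fold change is given. Hand1 could be fitted only because it was high in shCbx6, so no limma p-value of Hand1 is read as support. The fragment ratio was 5.79 without shCbx6 replicate 2. With a pseudocount of 0.1 in place of 1 the log2 fold change was 2.5, and with quantile normalization 0.55 (limma adjusted p = 0.526 and 0.678).

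Cdx2 was read at 0.0156 and 0.0615 FPKM in shCtl against 0.114 and 0.511 FPKM in shCbx6. In fragments this was 1 and 4 against 7 and 37, and the ratio of the sums, scaled for depth, was 8.5 (95% exact interval 3.38 to 27.5, counting error only). It was 2.95 without shCbx6 replicate 2 and between 5.35 and 21.1 without each of the other libraries. As for Hand1, shCbx6 replicate 2 was the highest library and replicate 1 lay between it and shCtl. All values of Cdx2 stayed under 1 FPKM, so it was not fitted.

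Gata3 followed the same order of libraries, with 0.0301 and 0.0396 FPKM in shCtl against 0.0944 and 0.489 FPKM in shCbx6. These values correspond to 3 and 4 fragments against 9 and 55, with a ratio of 8.83 (95% exact interval 4.05 to 22.9, counting error only), which was 2.71 without shCbx6 replicate 2 and 14.0 without shCbx6 replicate 1. The sources used here do not say whether the libraries kept the strand, so fragments of the overlapping 9230102O04Rik and of Gata3 may not be told apart. Elf5 remained near the limit of detection, at 0.0157 and 0.0155 FPKM in shCtl against 0.0329 and 0.0533 FPKM in shCbx6, and whole fragments could not be recovered for all of its values.

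Tead4 ran in the other direction, at 9.68 and 7.87 FPKM in shCtl against 5.48 and 4.93 FPKM in shCbx6. Both shCbx6 values were below both shCtl values, and the means of 8.77 ± 1.28 and 5.21 ± 0.389 FPKM (SD, n = 2 libraries each) differed by a ratio of 1.69 in favour of shCtl. The limma log2 fold change was -0.65 (standard error 0.159, adjusted p = 0.239), and it stayed between -0.78 and -0.52 when 1 library was left out.

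The values of the remaining genes overlapped between the groups. Gata2 was at 0.427 and 0.177 FPKM in shCtl against 0.104 and 0.256 FPKM in shCbx6, from 10 to 43 fragments per library. Its depth-scaled ratio was 0.618 (95% exact interval 0.402 to 0.938, counting error only), and it ran from 0.345 to 1.05 with 1 library left out. Tfap2a, with 35 to 64 fragments per library, was at 0.398 and 0.628 FPKM in shCtl against 0.499 and 0.645 FPKM in shCbx6, a depth-scaled ratio of 1.13 (95% exact interval 0.842 to 1.51, counting error only). Elf3, which had the highest mean in shCtl and no CBX7 or RING1B peak, was at 10.3 and 12.9 FPKM in shCtl against 8.95 and 17.4 FPKM in shCbx6. The limma log2 fold change of Elf3 was 0.11 (standard error 0.314, adjusted p = 0.932), and it was -0.04 without shCtl replicate 1 and -0.33 without shCbx6 replicate 2.

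**Figure D3:**
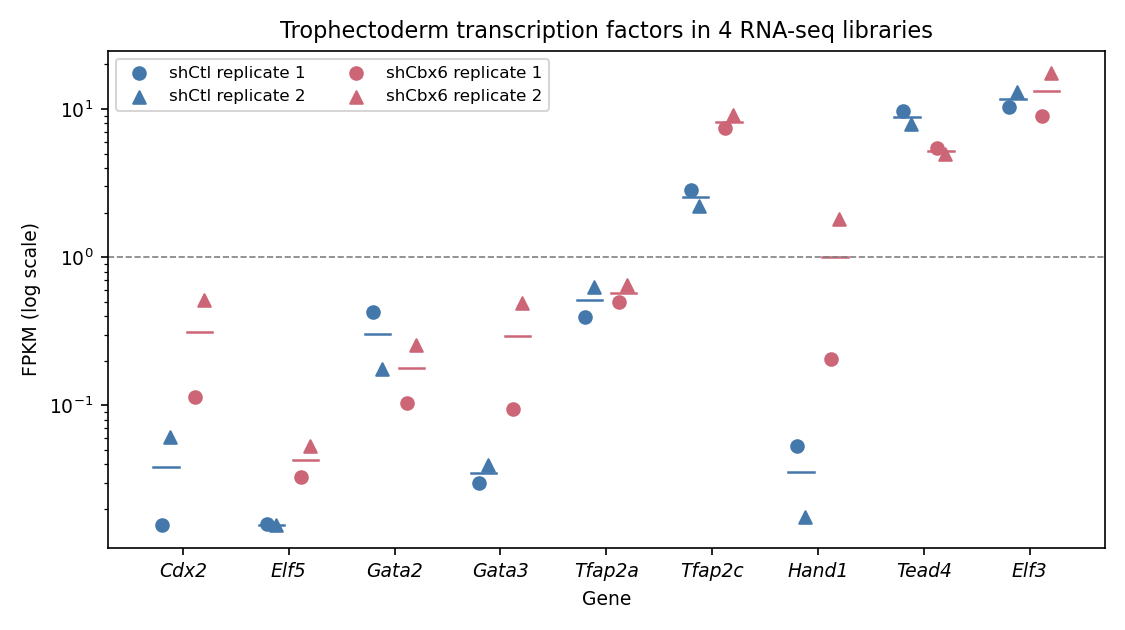
FPKM on a log scale of the 9 genes in the 4 RNA-seq libraries (points by group and replicate, short lines the group means, dashed line 1 FPKM). Both shCbx6 libraries sit above both shCtl libraries for Cdx2, Elf5, Gata3, Tfap2c and Hand1 and below both for Tead4, and shCbx6 replicate 2 is the higher of its group for all genes but Tead4.

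Depth relative to the first shCtl library was 1.01 in the second, and it was 0.956 and 1.13 in the shCbx6 libraries.

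Genes whose changes over the 4 libraries were most like those of a member were found by the Euclidean distance of log2(FPKM + 1) centred on the shCtl mean, over the genes fitted and for the 3 members with the largest fold change. The centring removes the level itself, which may differ. For Tfap2c the nearest were Nefl (distance 0.187, with 6.81, 6.49, 18.7 and 19.8 FPKM in shCtl replicates 1 and 2 and shCbx6 replicates 1 and 2) and H2-T22 (0.197). H2-T22 was almost absent from shCtl, with 3.41e-05, 3.27e-05, 1.52 and 1.85 FPKM in the same order. For Hand1 they were Pcdh1 (0.106) and Tubb6 (0.111; 21.1, 21.5, 23.8 and 62.4 FPKM in the same order), which share with Hand1 a high value in shCbx6 replicate 2. For Tead4 they were Satb1 (0.035) and Pik3c2b (0.0514). Within a distance of 0.5 lay 48 genes for Tfap2c, 122 for Hand1 and 816 for Tead4, numbers that grow as the change of the member gets smaller.

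The paralogs of these factors varied in direction. Of 16, 7 were fitted, with a median log2 fold change of 0.08 against -0.01 for all genes fitted, and by limma none passed an adjusted p of 0.05, with 2 higher and 1 lower at an unadjusted p under 0.05 (5.12 and 6.55% of all genes fitted). Tead3, a relative of Tead4, was at 1.12 and 1.09 FPKM in shCtl against 2.01 and 3.73 FPKM in shCbx6 (fitted log2 difference 0.85, limma adjusted p = 0.318). Tead1 had values of 10.7 and 7.17 against 13.2 and 13.5 FPKM (log2 fold change 0.55), and Tead2, the most abundant of the family, was level at 50.3 and 54.4 against 49.1 and 53.7 FPKM. Tead1 and Tead3 were thus above both shCtl libraries where Tead4 was below them. Cdx1, which unlike Cdx2 was expressed in shCtl, was at 2.58 and 2.80 FPKM against 0.797 and 0.659 FPKM (log2 fold change -1.09, limma adjusted p = 0.123), opposite to Cdx2, and like Cdx2 it had a peak in all 4 lists. Gata1, without a peak, was at 0.445 and 0.615 against 0.893 and 1.15 FPKM (log2 fold change 0.40), and it was fitted, and enters the count and median above, through shCbx6 only.

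Elf1 (3.04 and 4.07 against 3.27 and 4.36 FPKM, log2 fold change 0.08) and Elf2 (15.4 and 15.6 against 14.1 and 14.9 FPKM, log2 fold change -0.08) were nearly level. The other paralogs were too low to be fitted. Among them Cdx4, Tfap2e and Gata6 were above both shCtl libraries, with means of 0.0433 and 0.128, of 0.0627 and 0.333 and of 0.13 and 0.173 FPKM. Gata4, Gata5, Tfap2b and Elf4 overlapped between the groups, and Tfap2d and Hand2 were listed at 0 in every library. Of the 16 paralogs 10 had a peak in all 4 lists, where 11.5% of all genes had one, including the silent Tfap2d and Hand2.

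Other trophoblast genes were taken from a list of 31, of which 30 were in the table and 22 were fitted. By limma none passed an adjusted p of 0.05, while 6 were higher and 2 lower at an unadjusted p under 0.05, where 5.12 and 6.55% of all genes fitted were. By the ratio of means 11 were up and 2 down 1.5-fold, beside 7.63 and 6.56% of all genes fitted, and both shCbx6 libraries lay above both shCtl libraries for 13 and below both for 2, where 18.9 and 24.4% of all genes fitted did so. The median log2 fold change was 0.49. These numbers are partly set by the filter, since 7 of the 22 (Fgfr2, Ascl2, Krt7, Krt19, Dab2, Rhox6 and Rhox9) reached 1 FPKM through shCbx6 only, against 3.62% of all genes fitted, and they supplied 5 of the 13 above both, 6 of the 11 up and 2 of the 6 at an unadjusted p under 0.05. The list summed to 374 and 410 FPKM in shCtl against 505 and 797 FPKM in shCbx6 replicates 1 and 2. A few genes carried most of that rise. In shCbx6 replicate 2 they were Krt8, Krt18 and Peg10 (118.8, 122.2 and 166.7 FPKM). In replicate 1 it was mainly Fabp3, at 193.9 FPKM against 108.9 and 98.3 FPKM in shCtl and 109.0 FPKM in shCbx6 replicate 2.

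Among the fitted genes, the 3 highest log2 fold changes were in simple epithelial keratins (Krt18, Krt8 and Krt7), which trophectoderm shares with other epithelia. Krt18 was read at 3.66 and 6.91 FPKM in shCtl against 13.2 and 122 FPKM in shCbx6 (fitted log2 difference 2.78, limma adjusted p = 0.389), and Krt8, its partner in the filament, at 4.81 and 7.25 against 12.1 and 119 FPKM (2.52, limma adjusted p = 0.427). Krt7 was at 0.0219 and 0.151 against 0.549 and 9.02 FPKM and Krt19 at 0.775 and 0.944 against 1.78 and 11.5 FPKM. Replicate 2 of shCbx6 exceeded replicate 1 several-fold for each of the 4 keratins, the order also seen for Hand1, Cdx2 and Gata3.

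Other genes of the list were also above both shCtl libraries. Fgfr2, the receptor for the FGF4 that sustains trophoblast stem cells, was at 0.308 and 0.192 FPKM in shCtl against 1.61 and 2.27 FPKM in shCbx6 (fitted log2 difference 1.23, limma adjusted p = 0.143). Cdh3, P-cadherin, was at 4.51 and 5.55 against 9.33 and 11.5 FPKM (0.92, limma adjusted p = 0.17), and Id2, an inhibitor of bHLH factors, at 6.39 and 5.14 against 15.4 and 25.9 FPKM (1.64, limma adjusted p = 0.125). Peg10, an imprinted gene needed for the placenta, was at 23.5 and 35.9 against 54.1 and 166.7 FPKM, with replicate 2 of shCbx6 again the higher. Dab2 and Rhox9 were also up 1.5-fold without overlap, with means of 0.617 and 1.18 and of 0.356 and 1.48 FPKM, although shCbx6 replicate 1 was close to shCtl for Dab2 (0.699 against 0.657 and 0.577 FPKM).

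Not all of the list pointed the same way. Lgals3, galectin 3, had 45.8 and 52.7 FPKM in shCtl against 27.5 and 12.7 FPKM in shCbx6 (fitted log2 difference -1.35, limma adjusted p = 0.263), and Bmp4 had 22.4 and 20.7 against 13.4 and 6.59 FPKM (-1.11, limma adjusted p = 0.291). The third lowest, Aqp3, a water channel, overlapped between the groups (-0.38). Eomes, the T-box partner of Cdx2 in trophoblast stem cells, was level at 2.13 and 1.42 against 1.63 and 1.92 FPKM. Several markers of differentiated placental cells were not detected, with Synb, Prl2c2, Tpbpa and Ctsq listed at 0 in every library and Prl3d1 at 0 in 3 of them. The syncytiotrophoblast genes Syna (0.089 and 0 against 0.0931 and 0.217 FPKM) and Gcm1 (0.099 and 0.147 against 0.242 and 0.337 FPKM) were low. Gcm1 was above both shCtl libraries. Syna was so by FPKM, but shCbx6 replicate 1 exceeded shCtl replicate 1 only by about their difference in depth (0.956 against 1).

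The Hippo pathway, which sets TEAD activity, was followed in 17 genes, 15 of them fitted. By limma none passed an adjusted p of 0.05 (3 higher and 1 lower at an unadjusted p under 0.05), 6 were up and 1 was down 1.5-fold, 6 lay above and 3 below both shCtl libraries, and the median log2 fold change was 0.14. Over all genes fitted, the shares were 5.12 and 6.55% at the unadjusted p, 7.63 and 6.56% for 1.5-fold and 18.9 and 24.4% for above and below. Amot, counted among the 6 up and the 6 above, was fitted through shCbx6 only. The highest fold changes were those of Cyr61 and Ctgf, known targets of YAP and TEAD. Ctgf was read at 4.22 and 4.04 FPKM in shCtl against 13.8 and 22.7 FPKM in shCbx6 (limma log2 fold change of 1.87 with a standard error of 0.246, limma adjusted p = 0.0976), and Cyr61 at 1.14 and 1.34 against 4.75 and 23.5 FPKM (2.41, limma adjusted p = 0.279). Amotl2, Amot and Amotl1, the angiomotins that hold YAP at junctions, were also above both shCtl libraries, with log2 fold changes of 0.93, 0.89 and 0.49. For each, shCbx6 replicate 2 was well above replicate 1 (34.46 against 15.95, 3.175 against 0.9794 and 4.424 against 1.997 FPKM). Replicate 1 was close to shCtl for Amotl1 (1.892 and 1.855 FPKM in shCtl). Yap1 overlapped between the groups at 40.9 and 42.1 against 40.8 and 51.8 FPKM. Wwtr1, which encodes TAZ, was below both shCtl libraries (8.78 and 11.5 against 6.04 and 7.28 FPKM, log2 fold change -0.53), as was the kinase Stk3 (-0.30), while Nf2 overlapped (-0.27). Ankrd1, another YAP target, was listed at 0 in both shCtl libraries and at 0.0202 and 0.292 FPKM in shCbx6.

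**Figure D4:**
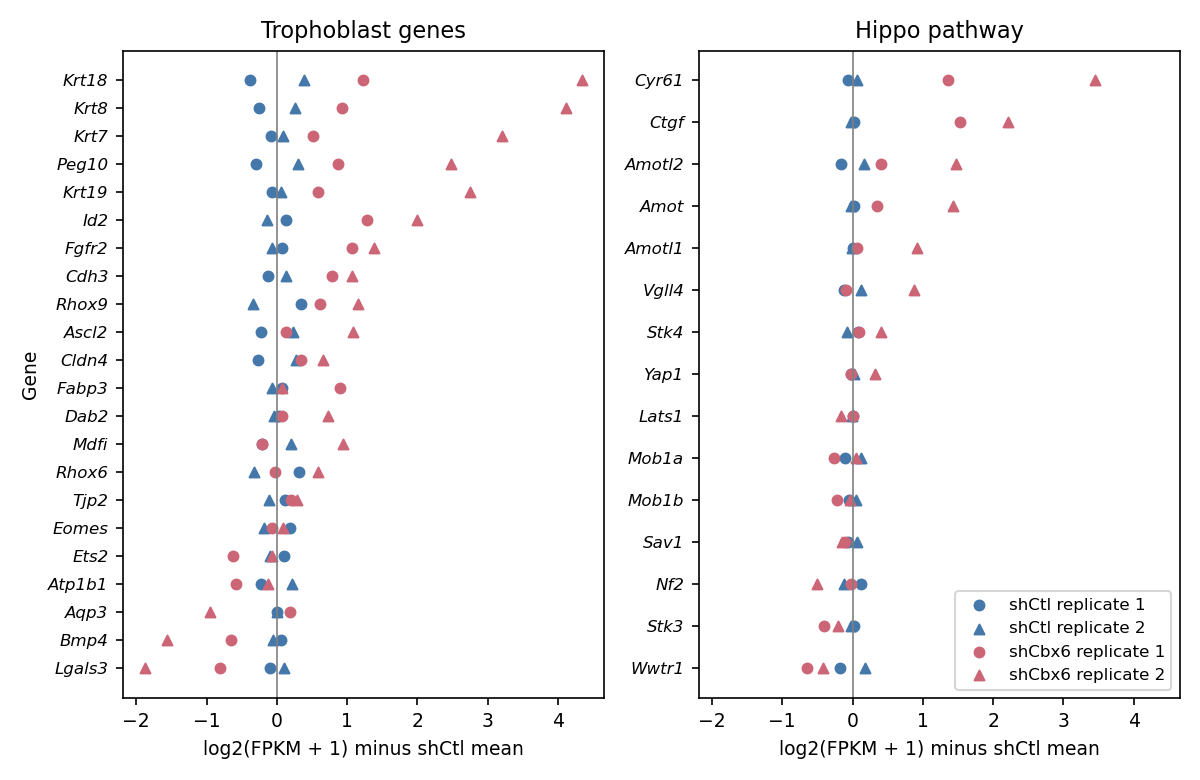
Difference of log2(FPKM + 1) from the shCtl mean for the fitted trophoblast genes (left) and Hippo pathway genes (right), with 1 point per library. For Krt18, Krt8, Krt7, Krt19, Peg10 and Cyr61 shCbx6 replicate 2 (red triangles) lies well to the right of shCbx6 replicate 1 (red circles), and both lie to the right of the shCtl points.

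Factors that keep ESCs out of the trophoblast lineage gave a mixed picture. Of 13, all fitted, 1 was up and 1 down 1.5-fold, the median log2 fold change was -0.02, and by limma none passed an adjusted p of 0.05 (1 higher and 1 lower at an unadjusted p under 0.05). These counts are near the shares of all genes fitted, 7.63 and 6.56% for 1.5-fold and 5.12 and 6.55% at the unadjusted p. Nanog was the lowest, at 320.7 and 358.7 FPKM in shCtl against 203.5 and 191.6 FPKM in shCbx6 (fitted log2 difference -0.78, limma adjusted p = 0.188). Pou5f1, which encodes OCT4, had means of 1410 ± 66.0 and 1140 ± 21.9 FPKM (SD, n = 2 libraries each, log2 fold change -0.31), and Uhrf1 a log2 fold change of -0.23. Dnmt3b, a DNA methyltransferase of the epiblast, was the highest at 31.8 and 31.8 against 90.9 and 191.5 FPKM (2.02, limma adjusted p = 0.147), followed by Mbd3 (0.34) and Chd4 (0.19). None of the 13 had a peak in all 4 lists, and with 11.5% of all genes having one, few were to be found in a list of this length.

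Markers of other cell types were read beside these genes, and their part in the differences was not tested. Surface ectoderm and squamous epithelium markers, 12 in all, summed to 141 and 178 FPKM in shCtl against 204 and 275 FPKM in shCbx6. Most of these sums came from Cdh1 (74.9 and 85.4 against 96.3 and 118.4 FPKM) and Epcam (42.9 and 66.4 against 65.0 and 100.1 FPKM), general epithelial genes that ESCs also express. Of the 6 fitted genes of the list 3 were above both shCtl libraries and 0 below both, beside 18.9 and 24.4% of all genes fitted, and Esrp1 (4.23 and 4.68 against 17.7 and 26.3 FPKM, log2 fold change 2.05, limma adjusted p = 0.0754) and Grhl2 (1.04) were the highest and Krt17 (-0.35) and Grhl3 (-0.12) the lowest, while the defining Trp63 and Krt5 were listed at 0 in both shCtl libraries and did not exceed 0.0418 FPKM. Primitive endoderm markers, 14 in all, summed to 50.9 and 54.9 FPKM in shCtl against 39.9 and 99.8 FPKM in shCbx6, with Lamb1 (0.70) and Sparc (0.47) highest and Lama1 (-1.62) and Col4a1 (-0.38) lowest by log2 fold change and Gata6 and Sox17 under 0.2 FPKM throughout. Over the 14, 4 lay above both shCtl libraries (Gata6, Sox17, Dab2 and Lamb1) and 5 below both (Sox7, Foxa2, Pdgfra, Cubn and Lama1), beside 20.6 and 20.2% of all genes above 0. Foxa2 counts as below by FPKM alone. Its replicate 2 values (0.0155 FPKM in shCtl and 0.0139 in shCbx6) differed only by about the difference in depth (1.01 against 1.13). Mesoderm markers, 11 in the table, summed to between 3.21 and 6.10 FPKM. T was at 0.0984 and 0.0324 FPKM in shCtl against 0.446 and 0.771 FPKM in shCbx6, and Snai1, fitted through shCbx6 only, had a log2 fold change of 0.60. Of the 11, 5 lay above both shCtl libraries (T, Mixl1, Mesp1, Fgf8 and Snai1) and 2 below both, beside the same 20.6 and 20.2%. The lower ones were Gsc and Kdr, with means of 0.109 and 0.0163 and of 0.12 and 0.068 FPKM. Mesp1 counts as above by FPKM alone. Its shCbx6 replicate 1 (0.0362 FPKM) exceeded shCtl (0.0346 and 0.0342 FPKM) only by about the difference in depth (0.956 against 1 and 1.01). Eomes was level (0.01), and Lhx1 was listed at 0.

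Neuroectoderm markers, 12 in all, summed to between 46.7 and 59.1 FPKM, with Otx2 (2.18), Pax6 (1.12) and Nes (0.97, fitted through shCbx6 only) highest and Mapt (-2.21, limma adjusted p = 0.0322) and Sox1 (-1.12) lowest. Fibroblast markers, 12 in all, summed to 55.6 and 45.9 FPKM in shCtl against 36.6 and 47.5 FPKM in shCbx6, nearly all of it Vim (-0.33), with Thy1 at 0.28 and Lum and Fap listed at 0. Col1a1 and Col1a2 of that list were above both shCtl libraries at low level, Col1a1 at 0.0336 and 0.0398 against 0.0984 and 0.549 FPKM. Col3a1 was so by FPKM, but shCbx6 replicate 1 (0.00589 FPKM) exceeded shCtl replicate 1 (0.00563 FPKM) only by about their difference in depth.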

How the data were processed

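The authors aligned paired-end RNA-seq reads to mm9 with TopHat, keeping uniquely mapping reads, and estimated FPKM per RefSeq transcript with Cufflinks. The deposited table holds 23290 FPKM entries, 25 with a date in place of a symbol. Its 4 entries sharing a symbol were reduced to the higher of each pair. ChIP-seq reads were aligned with Bowtie, and the authors called peaks per sample with MACS (shift size 75 bp). The score in the deposited lists is theirs. Lists hold no read counts, so ChIP depth is unknown.

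The members and gene lists were chosen with earlier results of these data known. Genes that averaged 1 FPKM or more in a group were fitted with limma 3.58.1 in R 4.3.3 on log2(FPKM + 1), with a trend, no replicate term and Benjamini-Hochberg adjustment over all genes fitted. The pseudocount of 1 understates changes of low genes. That the fit returns known fold changes was tested on simulated data with a smooth spread, which does not measure its power here. Peaks were assigned with GENCODE coordinates on mm9 (21149 symbols by name, 780 by synonym, including Tfap2a and Tfap2c). Fragments were recovered where all 4 depth-scaled values were whole within 0.1 of a fragment and the implied length was within 20% of the longest coding transcript. This succeeded for 5 members.

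Named were all members and paralogs, and from each other list the 3 highest and 3 lowest fold changes (2 for markers of other cell types) plus genes past 1.5-fold without overlap, all among fitted genes. Other genes singled out were chosen after their values were seen. Tables and figures were made in Python (3.11.15) with pandas 2.3.3, scipy 1.17.1, numpy 2.4.6 and matplotlib 3.10.9.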

Additional observations from a re-analysis of the deposited data

How the results depend on the processing

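Of the limma fits, the count of genes higher and lower in shCbx6 (5 and 6) was 11 higher with a pseudocount of 0.1, 1 and 1 without a filter, and 183 and 205 with a replicate block. It ranged from 3 to 190 higher and from 7 to 88 lower when 1 library was left out, with the most calls without shCbx6 replicate 1. With the block, Tfap2c had a limma adjusted p of 0.0326, Tead4 0.0553 and Hand1 0.233. Same-numbered libraries deviated together across genes (correlation 0.266 over 11592 genes), but 2 pairs that share only a number do not establish a pairing. The counts of genes up and down 1.5-fold (885 and 761) were 3739 and 2357 without a filter, 439 and 268 at 2-fold, and 513 and 456 for the replicate block, which asked for 1.5-fold in both same-numbered pairs. When 1 library was left out they ranged from 665 to 1300 up and from 824 to 1182 down. The log2 fold change of Elf3 changed sign without shCtl replicate 1 (-0.04) and without shCbx6 replicate 2 (-0.33), within a range of -0.33 to 0.55. The median log2 ratio of abundant genes to the first shCtl library was 0.13 in the second and 0.01 and 0.12 in the shCbx6 libraries, and rescaling by it left 882 genes up and 758 down. In alternatives added after seeing the data, leaving out 1 library gave 5 to 7 members above both shCtl libraries and 1 to 3 below, counts that cannot shrink when a library is dropped and so show no stability. Fragment ratios also changed, that of Hand1 to between 5.79 and 60.8. Of the peak counts, only the minimum score of 100 moved any, to 7 of 8 in CBX6 replicate 1 and 6 of 7 in RING1B. The cause of these shifts was not tested. With 5 members under 1 FPKM in both groups, low levels limit what 2 libraries per group can show.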

Other observations

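Peaks at genes of other lineages were counted in the same way, where 11.5% of all genes had a peak in all 4 lists. Such peaks were present at 9 of the 14 primitive endoderm markers, 8 of the 11 mesoderm markers with coordinates and 8 of the 11 neuroectoderm markers with coordinates, against 7 of the 30 trophoblast genes, 4 of the 12 surface ectoderm and squamous epithelium markers, 2 of the 17 Hippo pathway genes, which is close to the share of all genes, and 3 of the 12 fibroblast markers. Among trophoblast genes, those with all 4 were the transcription factors Eomes, Ascl2 and Dlx3, the receptor Fgfr2, and Cdh3, Krt18 and Mdfi. Dlx3, a homeobox factor of the placenta, was at 0 and 0.0373 FPKM in shCtl against 0.079 and 0.681 FPKM in shCbx6. The lists are short and were chosen with earlier results known, so the shares describe these genes only.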
